A study of Mus musculus with 12 samples.

Results

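The 4 adult globin genes, Hba-a1, Hba-a2, Hbb-bs and Hbb-bt, and 6 genes of haem synthesis and breakdown, Alas2, Alas1, Urod, Fech, Hmox1 and Blvrb, were followed across all 12 libraries, labelled as liver, of a study of Hnf4a loss and high fat diet in mice. They were chosen by name, and all 10 of them were found among the 35275 genes of the deposited table. The libraries form 4 groups of 3. KO HFD is the Hnf4a liver knockout on a high fat diet, KO chow the same genotype on vivarium chow, WT HFD the wild type on a high fat diet and WT chow the wild type on vivarium chow. The series text calls the 3 libraries of a group biological replicates. The sources used here give no strain, age, sex, Cre driver or length of feeding.

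Haemoglobin is built from α-globin and β-globin chains, each of which carries a haem. Red cells keep globin mRNA only until they mature, so blood left in the vessels of a dissected liver can add globin transcripts, made mainly by reticulocytes, to liver RNA. Haem synthesis starts with aminolevulinate synthase, which exists as an erythroid enzyme, Alas2, and as an enzyme of liver and other tissues, Alas1, which haem represses. In the liver most new haem goes to cytochromes P450, and haem from old red cells is opened by haem oxygenase in Kupffer cells, the resident macrophages.

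Values are FPKM, fragments scaled to the length of the gene and the depth of the library, as computed by the authors. Differences were tested with limma on log2(FPKM + 1) over 12251 genes with Benjamini-Hochberg adjustment, and "past the threshold" means an adjusted p below 0.05. Because 1 is added before the log, changes of low genes come out too small. The read numbers behind the values could be recovered from the table, and the libraries held 15705196 to 20311766 reads on genes.

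The genotype labels were checked first. Hnf4a stood at 108, 98.8 and 138 FPKM in KO HFD and at 158, 132 and 130 FPKM in KO chow, against 133, 116 and 120 FPKM in WT HFD and 126, 75.8 and 0.0973 FPKM in WT chow. On a high fat diet the values of the KO and WT labels overlapped, and on chow every KO value lay above every WT value. A value over the whole gene does not show which exons were read, so it cannot settle the genotype. KO and WT below therefore name the labels of the libraries, and directions between genotypes are directions between those labels. WT chow 2 and WT chow 3 stood apart from the other libraries. The summed FPKM of 10 hepatocyte markers was 20389 in WT chow 2 and 1232 in WT chow 3, against 32450 to 62926 in the other 10 libraries, and 8 brown fat markers summed to 19248 FPKM in WT chow 3. That library had 11.9 FPKM of Alb, the albumin of hepatocytes, and 2339 FPKM of Ucp1, the uncoupling protein of brown fat, so its markers go against its label. Differences that rest on WT chow are therefore given with all 12 libraries and with the 10 libraries left without WT chow 2 and 3, in which WT chow is a single library whose spread is assumed to equal that of the other groups. The markers of exocrine pancreas, listed to look for other tissues, summed to 41.3 to 70.0 FPKM in KO HFD, against 0 to 5.03 FPKM in the other 9 libraries. The 7 of them that were tested, Clps, Cel, Ctrb1, Pnlip, Cpa1, Prss2 and Cela2a, rose in KO HFD against both WT HFD and KO chow, and all of these but Cela2a also passed in the interaction (6 genes with 12 libraries, 5 with 10).

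The α-globin genes lie on chromosome 11 and the β-globin genes on chromosome 7 (GRCm38 coordinates of the deposited table). Hba-a1 (ENSMUSG00000069919) spans chr11:32283511-32284465 and Hba-a2 (ENSMUSG00000069917) chr11:32296489-32297298, both on the plus strand. Hbb-bs (ENSMUSG00000052305) spans chr7:103826534-103828096 and Hbb-bt (ENSMUSG00000073940) chr7:103812524-103813996, both on the minus strand. The members of each pair are nearly identical in their coding exons. In the reference transcripts (GENCODE on GRCm38), 428 of 429 coding bases are equal between Hba-a1 and Hba-a2, and 443 of 444 between Hbb-bs and Hbb-bt. The stretches below are shown because they hold the only coding base that differs within each pair. Each is 20 bases on either side of that base, which is in capitals, and lies within a single exon.
Hba-a1: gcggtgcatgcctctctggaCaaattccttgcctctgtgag
Hba-a2: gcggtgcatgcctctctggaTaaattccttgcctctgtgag
Hbb-bs: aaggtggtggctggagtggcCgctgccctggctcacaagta
Hbb-bt: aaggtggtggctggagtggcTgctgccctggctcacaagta
The α difference is C381T and the β difference C417T, counted from the first coding base, with the first-named gene of each pair first. The stretches lie at chr11:32284323-32284363, chr11:32297140-32297180, chr7:103826672-103826712 and chr7:103812663-103812703, in the order shown. The longest run of bases that 2 transcripts share is 415 for the α pair and 430 for the β pair. How reads that match both copies were counted is not given in the sources used here, so the level of a single copy is uncertain. The sum of a pair is the firmer value only if such reads were kept. If they were dropped, the sums and the ratio of β to α are affected too.

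Upstream sequence is shown for the globin and Alas2 promoters because these genes are known as targets of the same erythroid factors. Of the 10 genes, 8 have a promoter entry in RefSeq (GRCm38.p6), a window of 250 bases before to 50 bases after the start. Each stretch printed is the 120 bases nearest the start that lie outside every annotated transcript of the gene. Capitals mark matches, on either strand, to AGATAA (the GATA motif), CACCC (a site of the KLF family), CCAAT or TATAA.
Hba-a2: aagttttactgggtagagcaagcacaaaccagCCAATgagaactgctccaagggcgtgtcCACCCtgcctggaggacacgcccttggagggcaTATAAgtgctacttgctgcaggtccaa
Hbb-bt: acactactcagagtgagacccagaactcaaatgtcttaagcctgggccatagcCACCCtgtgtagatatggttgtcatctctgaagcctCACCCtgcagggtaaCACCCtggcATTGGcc
Alas2: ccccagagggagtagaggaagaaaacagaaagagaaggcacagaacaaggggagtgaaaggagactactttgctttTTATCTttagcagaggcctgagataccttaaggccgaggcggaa
They lie at chr11:32296369-32296488 on the plus strand, chr7:103813997-103814116 on the minus strand and chrX:150547255-150547374 on the plus strand, and end 3, 73 and 42 bases before the RefSeq start, in that order. The windows of Hba-a1 and Hba-a2 hold the same 297 bases when shifted by 3. Over the windows of the 4 globin genes and Alas2, CACCC was found in 5 of 5, TATAA in 5 of 5, CCAAT in 4 of 5 and AGATAA in 2 of 5. Over all 32851 RefSeq windows of this length, CACCC was found in 57.5%, TATAA in 24.9%, CCAAT in 37.4% and AGATAA in 11.2%. A match is a description of letters only.

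The 4 globin genes spread 10.6- to 12.1-fold over the 12 libraries, mostly between libraries of the same group. Hba-a1 stood at 440, 449 and 406 FPKM in KO HFD, at 594, 321 and 163 FPKM in KO chow, at 484, 560 and 1289 FPKM in WT HFD and at 341, 1079 and 109 FPKM in WT chow. The KO HFD libraries lay close together, while WT HFD 3 and WT chow 2 were high and WT chow 3 and KO chow 3 were low. Hbb-bs was likewise highest in WT HFD 3 and lowest in WT chow 3, with 527, 574 and 543 FPKM in KO HFD, 615, 342 and 204 FPKM in KO chow, 615, 828 and 1612 FPKM in WT HFD and 497, 1197 and 152 FPKM in WT chow. The other copy of each pair had lower listed values throughout. Hba-a2 had 81.5, 62.1 and 61.2 FPKM in KO HFD, 102, 61.1 and 34.1 FPKM in KO chow, 91.8, 85.1 and 214 FPKM in WT HFD and 64.9, 203 and 17.7 FPKM in WT chow. Hbb-bt had 43.5, 58.6 and 55.4 FPKM in KO HFD, 125, 50.2 and 25.7 FPKM in KO chow, 74.0, 84.9 and 222 FPKM in WT HFD and 47.9, 79.3 and 19.5 FPKM in WT chow. WT HFD 3 held the highest value of all 4 genes and WT chow 3 the lowest.

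**Figure D1:**
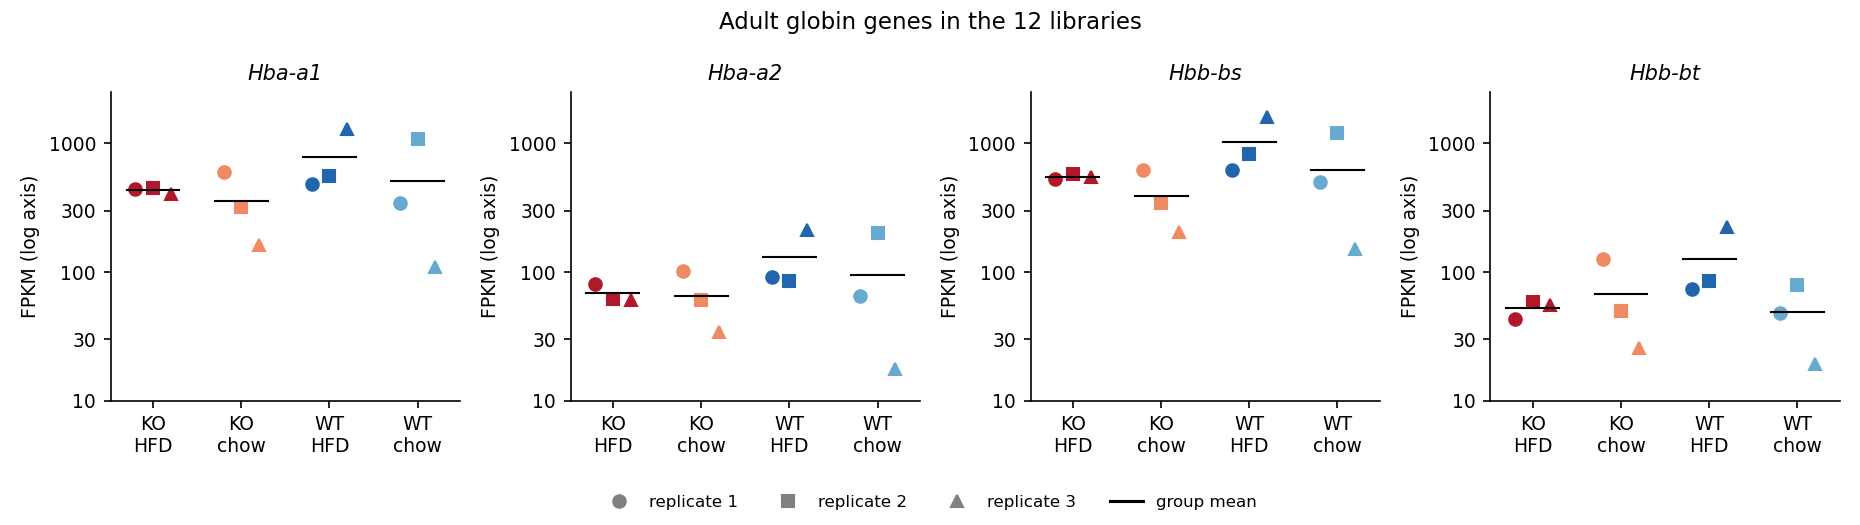
FPKM (log axis) of the 4 adult globin genes by group, 1 point a library, with a shape for each replicate number and a line at the group mean (n = 3). The KO HFD points lie close together and below all 3 WT HFD points, while the WT chow points of Hba-a1 spread from 109 to 1079 FPKM.

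Summed, the 4 genes made 1093, 1143 and 1065 FPKM in KO HFD and 1436, 774 and 426 FPKM in KO chow, against 1265, 1558 and 3338 FPKM in WT HFD and 951, 2558 and 298 FPKM in WT chow. That is 0.0218% to 0.243% of the reads on genes, an 11.2-fold range. The balance between the listed α and β sums varied far less. The β sum divided by the α sum lay between 0.996 and 1.42 in all 12 libraries. Hba-a1 was 4.76 to 7.23 times as high as Hba-a2, and Hbb-bs 4.91 times as high as Hbb-bt in KO chow 1 and 15.1 times in WT chow 2, the ends of that range. Across the 12 libraries the log2 values of the 6 pairs of globin genes correlated with r between 0.884 and 0.986, and across 10 libraries between 0.901 and 0.976. These are descriptions of the libraries, and the genes of a pair share long runs of sequence.

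On a high fat diet all 4 globin genes were lower in every KO library than in every WT library, but none passed the threshold. The log2 difference of KO HFD against WT HFD was −0.71 for Hba-a1 (SE 0.79), −0.80 for Hba-a2 (SE 0.75), −0.77 for Hbb-bs (SE 0.73) and −1.09 for Hbb-bt (SE 0.65), each with an adjusted p of 1.0 by limma. Genes whose groups did not overlap in this direction made up 12.4% of all genes tested, those in the other direction 7.37% and both together 19.8%. Past the threshold were 0.155% of genes with 12 libraries and 0.18% with 10. Over the 10 genes the median log2 difference was −0.31, against −0.03 over all genes tested. The 4 values are not separate observations, since all 4 genes vary together across libraries. The difference rests in part on WT HFD 3: without it the log2 differences were −0.27 for Hba-a1, −0.38 for Hba-a2, −0.38 for Hbb-bs and −0.60 for Hbb-bt. In these bulk libraries, fewer red cells and less globin mRNA per cell cannot be told apart.

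The sums of macrophage and neutrophil markers were also high in WT HFD 3, and single platelet markers peaked in different libraries. For 14 macrophage and Kupffer cell markers the summed FPKM ranged over 174 to 264 in KO HFD and 118 to 159 in KO chow, against 155 to 360 in WT HFD and 44.5 to 324 in WT chow, and WT HFD 3 was the highest library. The 8 neutrophil markers summed to 9.98 to 20.6 FPKM in KO HFD and 5.23 to 20.1 FPKM in KO chow, against 7.02 to 51.4 FPKM in WT HFD and 8.08 to 24.4 FPKM in WT chow, again with WT HFD 3 the highest. The 6 platelet markers summed to 2.07 to 4.19 FPKM in KO HFD and 1.69 to 1.80 FPKM in KO chow, against 2.37 to 4.19 FPKM in WT HFD and 1.45 to 10.9 FPKM in WT chow, with WT chow 2 the highest. Of the platelet markers, Itga2b (6.96 FPKM) and Gp1bb (0.402 FPKM) were highest in WT chow 2, and Ppbp (1.05 FPKM) and Gp9 (0.351 FPKM) in WT HFD 3. Pf4 (3.21 FPKM) was highest in WT chow 3 and Treml1 (0.118 FPKM) in KO chow 2. The part of blood cell content in the globin values was not tested.

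The diet comparisons of the globins did not pass either. In KO HFD against KO chow the log2 differences ran from −0.07 for Hbb-bt (SE 0.65) to 0.64 for Hbb-bs (SE 0.73), and KO chow values lay on both sides of the KO HFD values. Without KO chow 1 the difference of Hbb-bt was 0.52, and without KO chow 3 that of Hbb-bs was 0.26, that of Hba-a1 −0.02 and that of Hba-a2 −0.22. In WT HFD against WT chow they ran from 0.92 for Hba-a2 (SE 0.75, adjusted p = 0.54, limma) to 1.39 for Hbb-bt (SE 0.65, adjusted p = 0.348, limma). In KO chow against WT chow they ran from −0.36 for Hbb-bs (SE 0.73) to 0.37 for Hbb-bt (SE 0.65), and with 10 libraries from −0.50 for Hbb-bs (SE 0.60) to 0.19 for Hbb-bt (SE 0.78). These signs rest on single libraries: without WT chow 2 the difference of Hbb-bs was 0.35 and without KO chow 3 it was 0.03, while that of Hbb-bt was −0.22 without KO chow 1 and −0.17 without WT chow 3. WT HFD against WT chow also leaned on WT chow 3: without it the median of the 10 genes was 0.25, against 0.91 with 12 libraries. The interaction then turned from −0.75 to 0.13 for Hba-a2, from −0.58 to 0.24 for Hba-a1 and from −0.41 to 0.36 for Hbb-bs. For Hbb-bt its sign did not change. With 10 libraries the WT HFD differences from WT chow 1 were 0.86 for Hba-a2 (SE 0.60) and 1.21 for Hbb-bt (SE 0.78), each with an adjusted p of 1.0 by limma.

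The embryonic globins Hba-x, Hbb-y, Hbb-bh1 and Hbb-bh2 were listed at 0 in all 12 libraries, which makes 4 of the 9 other globin genes found in the table. Of the rest, Mb, the oxygen store of muscle, and Cygb, which marks stellate cells in liver, were high enough to test and did not pass in any comparison. Mb stood at 0.0499, 0 and 0 FPKM in KO HFD and at 0.952, 2.18 and 6.56 FPKM in KO chow, against 3.88, 40.4 and 1.54 FPKM in WT HFD and 8.21, 11.3 and 3.51 FPKM in WT chow. Markers of heart muscle summed to 1.87 to 2.98 FPKM in KO HFD and to 6.48 to 20.3 FPKM in KO chow, against 9.72 to 29.8 FPKM in WT HFD and 9.53 to 34.0 FPKM in WT chow, in the same libraries. Myl7 made most of the KO HFD sum, at 1.68, 2.65 and 2.30 FPKM, against 1.05, 2.09 and 1.30 FPKM in KO chow. Myh6 and Myl2 stood at 0 in all 3 KO HFD libraries. The part of heart muscle in the Mb values was not tested.

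Most markers of red cell precursors were low beside the globins. Of 23 erythroid markers in the table, 11 stayed below 1 FPKM in all 12 libraries. Slc4a1, the anion exchanger of the red cell membrane, reached at most 0.663 FPKM, and Gata1, an erythroid transcription factor, at most 0.0601 FPKM. Others were higher: Klf1, also an erythroid transcription factor, ran from 0.158 to 5.44 FPKM, and Tspan33 from 0.358 to 18.0 FPKM. Tfr2, which hepatocytes also express, had the highest mean of the list at 122 FPKM, followed by Bpgm (10.6 FPKM), Car1 (7.54 FPKM) and Tfrc (4.79 FPKM), and 0 of the 10 markers tested passed in any of the 5 comparisons. In the wider list of 14 late red cell transcripts, which includes the globins, 12 were tested and 0 passed.

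Over the 12 libraries the gene most like the mean of the 4 globins was Bpgm, the red cell enzyme that makes 2,3-bisphosphoglycerate (r = 0.913 on the log2 scale), followed by Clec1b (0.894), Ptgs1 (0.888), Treml4 (0.883) and Cxcl16 (0.877), out of 10648 genes. Over 10 libraries the 5 were Fam84b (0.919), Slc11a1 (0.908), Pip4k2a (0.906), Rcsd1 (0.891) and Cdr2 (0.886). The 2 lists shared no gene. WT HFD 3 is the highest library of the globins in both, and the libraries share the FPKM scale.

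Alas2 (ENSMUSG00000025270, chrX:150547375-150570638, plus strand), the first enzyme of haem synthesis in red cell precursors, kept to a narrower range than the globins in 10 libraries. It stood at 52.7, 88.8 and 55.9 FPKM in KO HFD, at 94.3, 80.0 and 56.5 FPKM in KO chow, at 59.2, 81.7 and 99.4 FPKM in WT HFD and at 65.3, 7.89 and 2.14 FPKM in WT chow. In 10 libraries it thus kept within 52.7 to 99.4 FPKM, and it was low in WT chow 2 and WT chow 3. These are the libraries that stand apart, with the lowest hepatocyte marker sums. In WT chow 2 the globins were high while Alas2 was low: the globin sum was 324 times the Alas2 level there and 139 times in WT chow 3, against 7.55 to 33.6 times in the other 10. The lowest value rests on 72 reads.

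**Figure D2:**
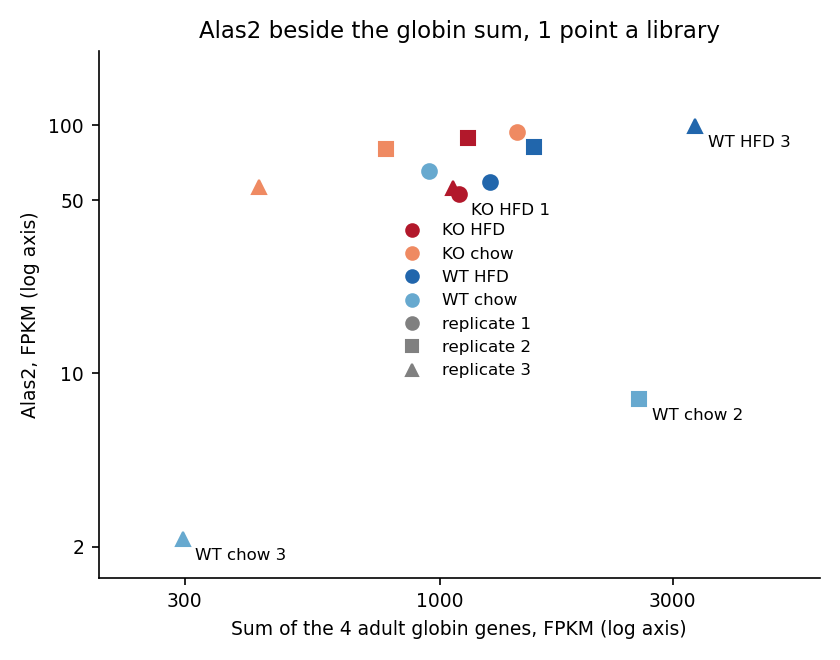
Alas2 (vertical, FPKM) against the sum of the 4 adult globin genes (horizontal, FPKM), both on log axes, 1 point a library, coloured by group with a shape for each replicate number. Of the 12 points, 10 lie between 52.7 and 99.4 FPKM of Alas2 over globin sums of 426 to 3338 FPKM, and WT chow 2 and WT chow 3 lie far below them.

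With 12 libraries Alas2 had the largest differences of the 10 genes, and they did not pass. The log2 difference was 2.63 (SE 0.85, adjusted p = 0.195, limma) in KO chow against WT chow and 2.69 (SE 0.85, adjusted p = 0.307, limma) in WT HFD against WT chow. Without WT chow 2 and 3 these were 0.20 (SE 0.38) and 0.26 (SE 0.38), and the interaction was −0.49 (SE 0.47). Without WT chow 1, the library of that group with high Alas2, they were 3.85 (adjusted p = 0.000314, limma) and 3.91 (adjusted p = 0.000316, limma), and the interaction was −4.14 (adjusted p = 0.00173, limma), against −2.92 (adjusted p = 0.292, limma) with all libraries. Without WT chow 1, 2981, 2435 and 2265 of the 12251 genes tested passed, in the order KO chow, WT HFD and interaction. The Alas2 call thus depends on which WT chow libraries enter. On a high fat diet KO and WT libraries overlapped, with a log2 difference of −0.29 (SE 0.85).

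Over 12 libraries the 5 genes most like Alas2 were Pros1 and F9, coagulation proteins made by hepatocytes (r = 0.992 for each), Gpt2 (0.989), Sardh (0.989) and Gdf2 (0.989). Over 10 libraries they were Itpripl1 (0.917), Sec22c (0.892), Slc24a3 (0.889), Traf3ip1 (0.889) and Pcyt1a (0.888). This comparison was added after the values of Alas2 were seen, and the 12-library values rest on WT chow 2 and 3. Slc24a3 lay at only 0.0681 to 0.214 FPKM in the 10 libraries, because the filter on the mean was taken over all 12.

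The relation of the 6 haem genes to the globin sum was tested over the libraries with 100000 permutations, and 0 of 6 relations passed after adjustment over the 6. Alas2 had r = 0.24 and rho = 0.47 over 12 libraries (adjusted permutation p = 0.543 for r and 0.34 for rho). Without WT HFD 3 and WT chow 2, the libraries farthest from the median of the globin sum, its r was 0.71 (adjusted permutation p = 0.115), and without WT chow 2 and 3 it was 0.64 (adjusted permutation p = 0.0855). Hmox1 had r = 0.65 and rho = 0.47 over 12 libraries (adjusted permutation p = 0.149 for r and 0.34 for rho), 0.44 without WT HFD 3 and WT chow 2, and 0.68 without WT chow 2 and 3. The r of Urod was 0.45, of Alas1 0.35, of Blvrb 0.29 and of Fech −0.02 over 12 libraries.

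Alas1 (ENSMUSG00000032786, chr9:106233455-106248126, minus strand), the synthase that limits haem synthesis in hepatocytes, had the highest mean FPKM of the haem synthesis enzymes over the 12 libraries, 114 against 112 for Alad, though Alad was higher in 6 of the 12. It spread widely within every group. It had 152, 70.8 and 208 FPKM in KO HFD, 160, 39.0 and 76.4 FPKM in KO chow, 178, 68.8 and 181 FPKM in WT HFD and 47.6, 91.3 and 94.0 FPKM in WT chow. The groups overlapped in all 4 comparisons. Replicate 2 was the lowest library in KO HFD, KO chow and WT HFD. The means were 144 ± 68.9 FPKM in KO HFD and 91.9 ± 62.0 FPKM in KO chow (SD, n = 3 each), a log2 difference of 0.73 (SE 0.61, adjusted p = 0.776, limma). In WT HFD against WT chow the log2 difference was 0.81 (SE 0.61), and 1.44 (SE 0.82) against WT chow 1 alone, neither past the threshold. In KO HFD against WT HFD it was 0.00 (SE 0.61). Over 12 libraries Alas1 was most like Bfar (0.81), Pdxk, the kinase that makes pyridoxal phosphate, the cofactor of Alas1 (0.765), Zc3h8 (0.737), Tmco4 (0.708) and Rpl35a-ps2 (0.662). Over 10 libraries the 5 were E130309D02Rik (0.919), Coa7 (0.906), Bfar (0.889), Ddx41 (0.877) and Dus1l (0.877).

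**Figure D3:**
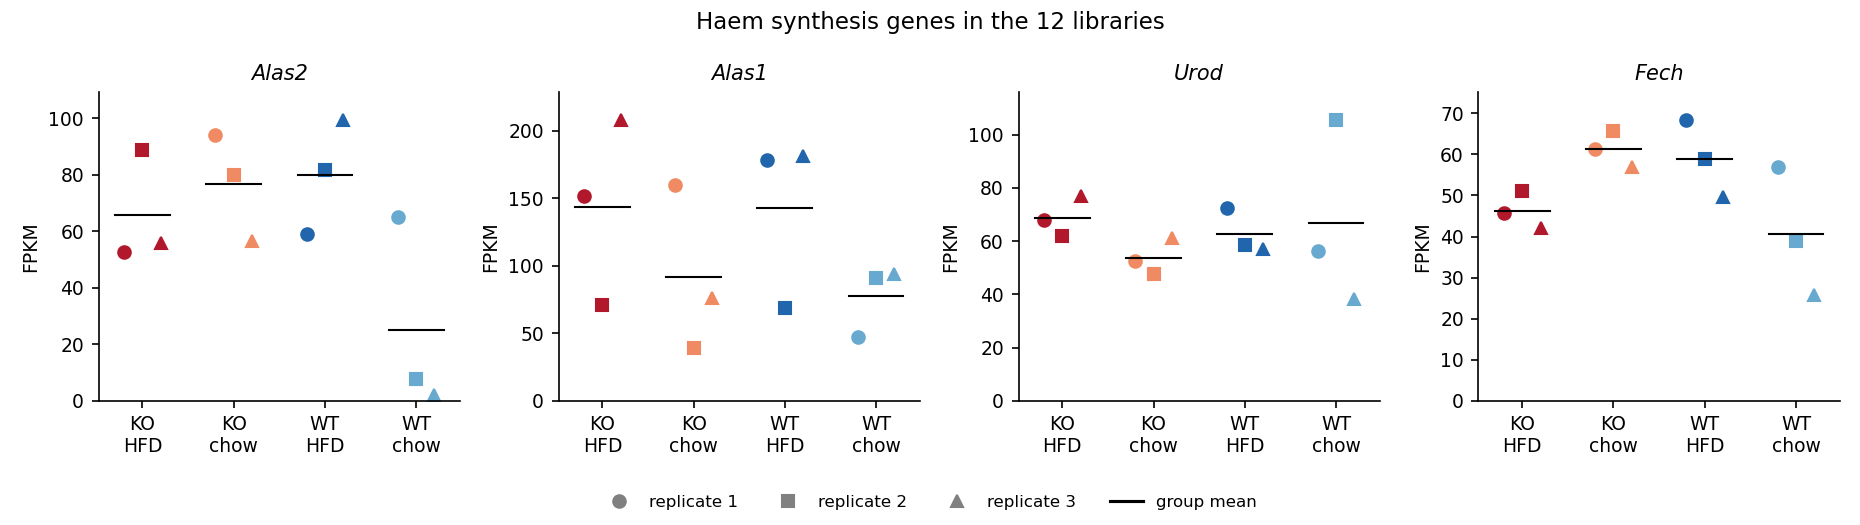
FPKM of Alas2, Alas1, Urod and Fech by group, 1 point a library, with a shape for each replicate number and a line at the group mean (n = 3). Fech lies at 42.1 to 51.1 FPKM in KO HFD, below all KO chow points, and Alas2 lies near 0 in WT chow 2 and WT chow 3.

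Fech and Urod, a late and an earlier enzyme of the same pathway, had log2 differences of opposite sign in the diet comparison of the KO libraries, and neither passed. Fech (ENSMUSG00000024588), ferrochelatase, which puts iron into the ring, stood at 45.7, 51.1 and 42.1 FPKM in KO HFD, against 61.2, 65.7 and 57.0 FPKM in KO chow, and the groups did not overlap. In WT HFD it had 68.3, 58.8 and 49.6 FPKM, against 57.0, 38.9 and 25.8 FPKM in WT chow. The log2 difference of KO HFD against KO chow was −0.40 (SE 0.29, adjusted p = 0.729, limma), and the SE was 0.15 with 10 libraries (adjusted p = 0.11, limma). On TPM values of the 10 libraries it was −0.59 and passed (adjusted p = 0.0316, limma), with the median of all genes at −0.22. Groups that did not overlap and were lower in KO HFD made up 21.6% of all genes tested in this comparison. The share of all genes that passed on TPM values of the 10 libraries is not given here.

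Urod (ENSMUSG00000028684, chr4:116989965-116994413, minus strand), uroporphyrinogen decarboxylase, had 67.9, 61.8 and 76.8 FPKM in KO HFD, against 52.6, 47.5 and 61.1 FPKM in KO chow. All KO HFD libraries lay above all KO chow libraries, the nearest pair being 61.8 and 61.1 FPKM. It had 72.3, 58.7 and 57.1 FPKM in WT HFD, against 56.4, 105 and 38.1 FPKM in WT chow, where WT chow 2 is the highest and WT chow 3 the lowest of all 12 libraries. The log2 difference of KO HFD against KO chow was 0.35 (SE 0.34, adjusted p = 0.818, limma), and the adjusted p was 0.16 by limma with 10 libraries. Groups that did not overlap and were higher in KO HFD made up 9.98% of all genes tested, and both directions together 31.5%. Past the threshold in this comparison were 0.155% of genes with 12 libraries and 7.76% with 10, and 0 of the 10 globin and haem genes in either fit.

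In KO chow against WT chow Fech was the one gene of the 10 whose groups did not overlap. All 3 KO chow libraries lay above all 3 WT chow libraries, by 57.0008 against 56.9512 FPKM at the nearest pair, with a log2 difference of 0.65 (SE 0.29, adjusted p = 0.235, limma). It was 0.10 (SE 0.21) without WT chow 2 and 3, and 0.93 (adjusted p = 0.0242, limma) without WT chow 1. Without WT chow 1, 2981 of the 12251 genes tested passed in this comparison. Genes higher in KO chow without overlap made up 12.4% of those tested in that comparison, those lower 4.43% and both together 16.8%. None of the 12251 genes passed the limma threshold there (0.0%, and 0.00816% with 10 libraries), with 2584 genes at an unadjusted p below 0.05 and 0 calls by limma-voom on recovered reads. In WT HFD against WT chow 0 of the 10 genes had groups without overlap, against 6.82% of all genes higher, 4.35% lower and 11.2% in either direction. By limma 0.0% of genes passed there (0.00816% with 10 libraries), with 1807 genes at an unadjusted p below 0.05 and 0 calls by limma-voom. There the log2 difference of Fech was 0.59 (SE 0.29), 0.04 (SE 0.21) without WT chow 2 and 3, and 0.86 without WT chow 1 (adjusted p = 0.0369, limma). Without WT chow 1, 2435 of the 12251 genes tested passed in WT HFD against WT chow, and 2265 in the interaction. The interaction of genotype and diet was −0.99 for Fech (SE 0.41, adjusted p = 0.294, limma), −0.44 without WT chow 2 and 3 (SE 0.25, adjusted p = 0.558, limma), and −1.26 without WT chow 1 (adjusted p = 0.0282, limma). In the interaction 0.122% of genes passed with 12 libraries and 0.0816% with 10.

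The other enzymes of haem synthesis did not pass in any of the 5 comparisons with 12 or 10 libraries either, so that 0 of 9 enzymes rose and 0 fell. In KO HFD against KO chow 6 of the 9 had a positive and 3 a negative log2 difference, with a median of 0.23 against −0.06 over all genes tested. Alad, which joins aminolevulinate molecules to porphobilinogen, averaged 112 FPKM and ran from 27.2 FPKM in WT chow 3 to 184 FPKM in WT chow 2. Cpox, coproporphyrinogen oxidase, stood at 43.9, 40.0 and 29.5 FPKM in KO HFD, against 87.1, 63.1 and 48.4 FPKM in KO chow, with no overlap, as were 21.6% of all genes in this direction. It fell by 0.97 past the threshold on TPM values of the 10 libraries (adjusted p = 0.0251, limma), and with 10 libraries and also without KO chow 3 (adjusted p = 0.0276, limma). The shares of all genes that passed in the settings where Cpox passed are not given here. Cpox had 36.0, 42.8 and 42.0 FPKM in WT HFD, against 50.5, 13.9 and 1.85 FPKM in WT chow, and it was named after its values were seen.

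Hmox1 (ENSMUSG00000005413, chr8:75093591-75100596, plus strand), the inducible haem oxygenase, was low, with no difference past the threshold. It had 7.25, 13.0 and 13.3 FPKM in KO HFD, 8.71, 9.99 and 7.49 FPKM in KO chow, 8.17, 10.2 and 16.0 FPKM in WT HFD and 10.1, 9.95 and 5.78 FPKM in WT chow. All groups overlapped, on 153 to 451 reads a library. Its largest log2 difference with 12 libraries was 0.36 (SE 0.31, adjusted p = 0.562, limma) in WT HFD against WT chow, which was 0.12 (SE 0.38) with 10, and in KO HFD against KO chow it was 0.29 in both fits. Over 12 libraries it was most like Mustn1 (0.85), Ptgs1 (0.85), Slpi (0.837), Csf1r, the receptor that keeps macrophages alive (0.83), and Clec4n (0.823). Over 10 libraries it was most like Clec4n, a receptor of myeloid cells (0.906), Serpina3n (0.902), Mmd2 (0.869), Slfn2 (0.869) and Cd81 (0.868). Hmox2, the constitutive haem oxygenase, averaged 20.8 FPKM and lay between 17.8 and 26.4 FPKM.

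Blvrb (ENSMUSG00000040466, chr7:27447978-27466144, plus strand), a biliverdin reductase that is also a flavin reductase of red cells, had 111, 193 and 155 FPKM in KO HFD, 101, 88.7 and 128 FPKM in KO chow, 162, 136 and 115 FPKM in WT HFD and 127, 155 and 19.1 FPKM in WT chow. WT chow 3 was the lowest library, and KO HFD 1 lay within the range of KO chow. The log2 difference of KO HFD against KO chow was 0.51 (SE 0.65, adjusted p = 0.875, limma), and the adjusted p was 0.179 by limma with 10 libraries. When libraries were weighted by their quality it was 0.78 (adjusted p = 0.0338, limma), the single setting in which Blvrb passed. With these weights 2420 of the 12251 genes tested passed in this comparison.

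**Figure D4:**
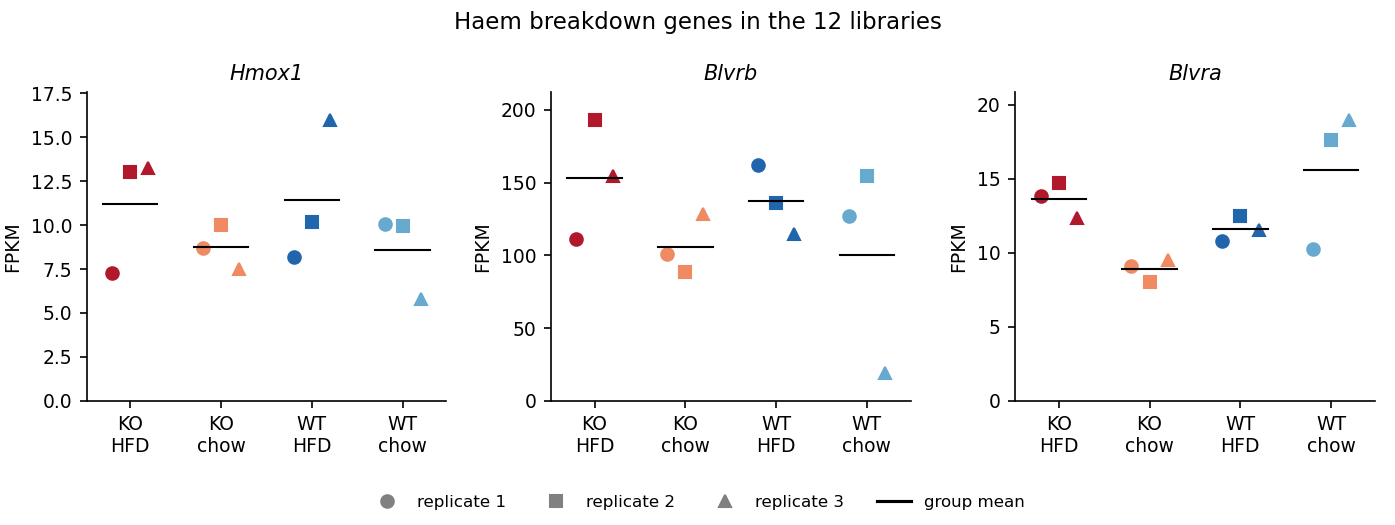
FPKM of Hmox1, Blvrb and Blvra by group, 1 point a library, with a shape for each replicate number and a line at the group mean (n = 3). Hmox1 overlaps between all groups, Blvrb is lowest in WT chow 3 at 19.1 FPKM, and Blvra is lower in every KO chow library than in every KO HFD library.

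Beyond the 10 genes, 46 genes of haem synthesis, mitochondrial haem transport, haem breakdown, haem scavenging and haem-responsive regulation were in the table and 44 were tested, members of these lists included. With 12 libraries 0 of 44 passed in KO HFD against KO chow. With 10 libraries 4 passed. Among them, Blvra, the main biliverdin reductase, rose by 0.56 on the log2 scale (SE 0.12, adjusted p = 0.0375, limma). Nr1d2, a haem-binding nuclear receptor of the clock, fell by 0.80 (adjusted p = 0.0371, limma), and Abcc2, which exports conjugated bilirubin into bile, fell by 0.96 (adjusted p = 0.0481, limma). The background is again 7.76% of all genes. The count depended on the libraries and the scale. The shares of all genes that passed in the settings that follow are not given here, so these counts have no background beside them. With 1 further library left out it was 8 without KO chow 3, 5 without KO HFD 2 and 0 without any of the other 7. With TPM values 12 genes fell and 0 rose, with the median of all genes at −0.22 in place of −0.06, and Blvra was not among them. With quantile normalization Blvra alone passed (0.64, adjusted p = 0.0461, limma).

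Blvra had 13.9, 14.8 and 12.3 FPKM in KO HFD, against 9.12, 8.06 and 9.55 FPKM in KO chow, and 10.8, 12.5 and 11.6 FPKM in WT HFD, against 10.2, 17.6 and 19.0 FPKM in WT chow. Abcc2 had 33.6, 45.6 and 28.1 FPKM in KO HFD, against 64.6, 96.3 and 52.9 FPKM in KO chow, and 58.4, 59.4 and 45.8 FPKM in WT HFD, against 56.9, 28.0 and 0.0982 FPKM in WT chow. In KO HFD against KO chow both were thus free of overlap, Blvra higher, as were 9.98% of all genes, and Abcc2 lower, as were 21.6%.

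The plasma proteins that bind haem and haemoglobin were the most abundant genes of these lists after Fabp1. Hpx, hemopexin, had 3677, 5171 and 6903 FPKM in KO HFD and 3529, 3545 and 3374 FPKM in KO chow, against 3080.4, 3458 and 6752 FPKM in WT HFD and 3309, 3580.5 and 1.19 FPKM in WT chow. Hp, haptoglobin, which binds free haemoglobin, had 3915, 4032 and 5744 FPKM in KO HFD and 2328, 2857 and 2643 FPKM in KO chow, against 1652, 2439.9 and 5052 FPKM in WT HFD and 2693, 7802 and 487 FPKM in WT chow. Neither passed in any comparison. Both were at their highest HFD values in KO HFD 3 and WT HFD 3. Pgrmc1, a haem-binding membrane protein, averaged 563 FPKM and was low in the same libraries as Alas2, at 85.7 FPKM in WT chow 2 and 87.5 FPKM in WT chow 3.

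Among the genes of mitochondrial transport, Slc25a39 (mean 264 FPKM), Tspo (205 FPKM), Tmem14c (157 FPKM) and Clpx (30.6 FPKM) were the most abundant, and Slc25a37, mitoferrin, which brings iron to ferrochelatase, averaged 5.88 FPKM. Of the haem-responsive regulators, Nr1d1 (28.8 FPKM), Nfe2l2 (23.6 FPKM), Mafg (18.6 FPKM) and Nr1d2 (16.2 FPKM) had the highest means. In KO HFD against KO chow 7 of these 8 regulators had a negative log2 difference, with a median of −0.39, against −0.06 over all genes tested.

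**Figure D5:**
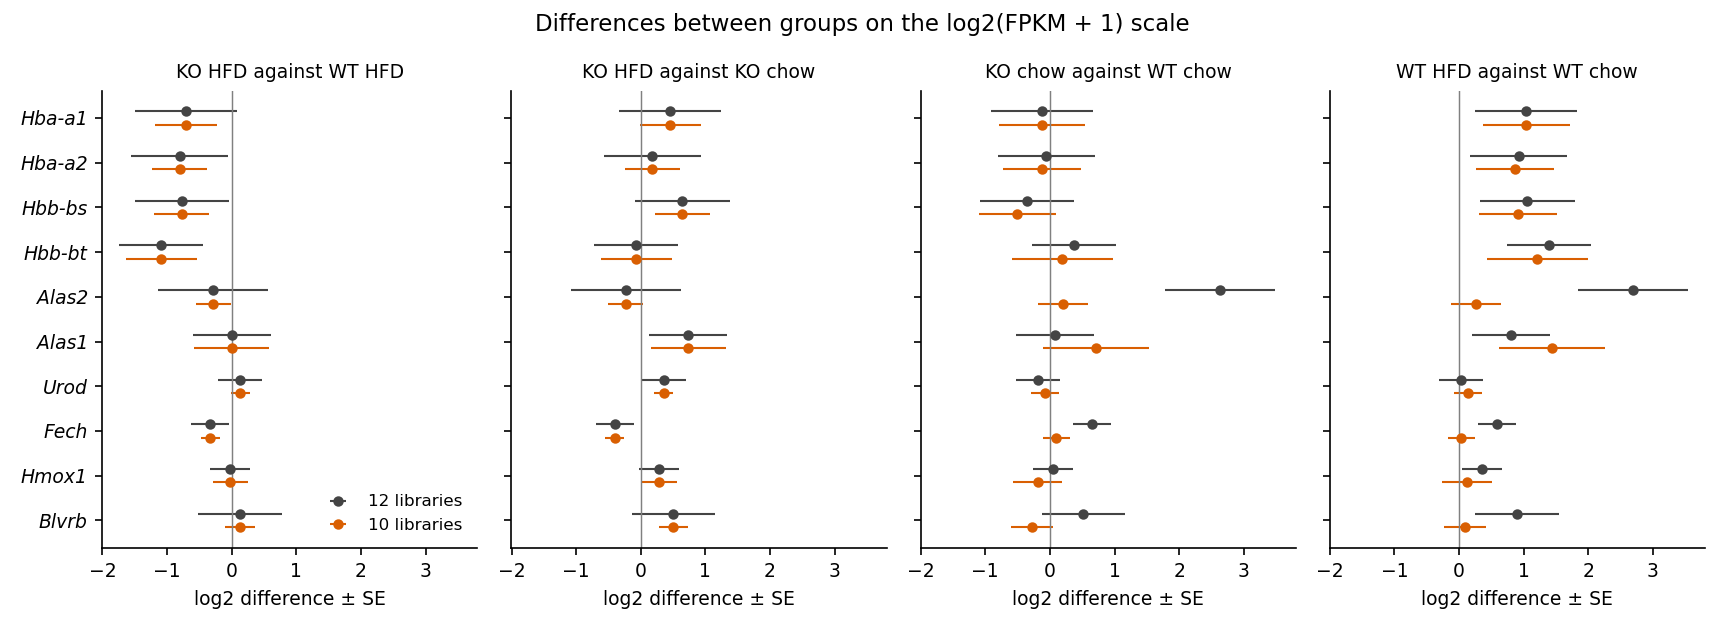
Log2 differences (log2(FPKM + 1) scale, horizontal) of the 10 genes in 4 comparisons, with the SE from limma as bars, in the fit of 12 libraries (grey) and of 10 libraries (orange). The Alas2 points of the comparisons with WT chow move from 2.63 and 2.69 to 0.20 and 0.26 when WT chow 2 and 3 are left out, while the globins lie left of 0 in KO HFD against WT HFD in both fits.

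Across all 5 comparisons, 0 of the 10 genes passed the threshold with 12 and with 10 libraries in limma, and 0 in limma-voom with 12. At an unadjusted p below 0.05 with 12 libraries, 0 of the 10 stood in KO HFD against WT HFD (1.27% of all genes) and 0 in KO HFD against KO chow (7.54%). There were 2, Alas2 and Fech, in KO chow against WT chow (21.1%), 1, Alas2, in WT HFD against WT chow (14.7%) and 2, Alas2 and Fech, in the interaction (16.6%). With 10 libraries there was 1, Fech, in KO HFD against WT HFD (12.5%), and 2, Fech and Urod, in KO HFD against KO chow (29.2%). In the comparisons with WT chow 1 and in the interaction there were 0 (2.8%, 2.38% and 10.2%, in the order KO chow, WT HFD and interaction). The number of the 10 genes with a positive log2 difference was 3 in KO HFD against WT HFD, 7 in KO HFD against KO chow, 6 in KO chow against WT chow and 10 in WT HFD against WT chow. With 10 libraries it was 4 in KO chow against WT chow and 10 in WT HFD against WT chow. In WT HFD against WT chow the median was 0.91 against 0.02 over all genes tested, and it was 0.56 with 10 libraries, 0.25 without WT chow 3 and 1.60 without WT chow 2. KO HFD against WT HFD and KO HFD against KO chow share the KO HFD libraries, and the comparisons with WT chow share that group.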

How the data were processed

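RNA of 12 mouse samples labelled as liver was sequenced and the authors deposited 1 table of FPKM for 35275 genes, with gene length and coordinates per the file headers. The tools named, per the submitters' processing notes, were TopHat, STAR, CASAVA, DESeq2 (version 2) and HTSeq 0.6.1, on GRCm38 and mm10. Which of them made the deposited FPKM, which annotation release and which strand setting: not given in the sources used here. All 12 columns were mapped by sample title. FPKM multiplied by gene length gave whole reads for 100% of values above 0 (tolerance 0.1 of a read), 15705196 to 20311766 reads on genes a library. Intervals are not given, and the recovered reads show counting depth only.

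Deposited FPKM were taken as log2(FPKM + 1), and the 12251 genes with a mean of at least 0.5 FPKM were fitted in limma 3.58.1 (R 4.3.3; 4 group means, empirical Bayes with a trend, Benjamini-Hochberg adjustment, threshold 0.05). The 5 contrasts were the diet effect in each genotype, the genotype effect on each diet and the interaction. The fit was tested on simulated data. The members and lists were chosen with earlier results of these data known. Named were all 10 members, list genes past the threshold and up to 4 genes a list by mean FPKM. Also named were the 5 genes most like the globins, Alas1 and Hmox1 by Pearson r. These came from genes with a mean of at least 1 FPKM over all 12 libraries. Same-numbered libraries of different groups did not deviate together (r from −0.504 to 0.131 over 18 pairs), so numbers were not taken as pairs. Alternatives covered pseudocount, filter, scaling, library weights, robust moderation, the libraries used, a replicate block and limma-voom on the recovered reads. Relations between genes used permutations in Python 3.11.15 with scipy 1.17.1, and figures used matplotlib 3.10.9. RefSeq promoter windows and GENCODE transcripts gave the sequences; protein sequences were not used here. Some list genes are counted but not reported here by name.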

Additional observations from a re-analysis of the deposited data

How the results depend on the processing

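None of the 10 genes passed the threshold in any of the 5 comparisons under any planned setting without a left-out replicate, except Blvrb with library weights in KO HFD against KO chow (1 gene, 0.78 on the log2 scale). With library weights 2420 of the 12251 genes tested passed in that comparison. Leaving out 1 library gave 0 calls in the comparisons of KO HFD, and 0 to 2 of the 10 genes in KO chow against WT chow, in WT HFD against WT chow and in the interaction, the 2 being Alas2 and Fech without WT chow 1. There, 2981, 2435 and 2265 of all 12251 genes tested passed, in the same order of comparisons. Of the globins, the direction in KO HFD against WT HFD held in all settings tried, while in KO HFD against KO chow and in KO chow against WT chow it turned when 1 library was left out. Fech in WT HFD against WT chow turned to −0.08 with 10 libraries and also without WT HFD 1, and Blvrb in KO chow against WT chow turned from positive to −0.28 with 10. Of the 50 differences over 10 genes and 5 comparisons, 0 to 8 changed sign in a planned setting and 1 to 10 when 1 library was left out; the largest of these had a size of 0.52 and 0.89 with all libraries. The r with the globin sum reversed for Fech (0.50 without the 2 farthest libraries), Urod (−0.11 without WT chow 2 and 3) and Blvrb (−0.10 without WT chow 2 and 3).

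Counts over all genes moved more. KO HFD against WT HFD gave 19 genes, but 11 with a pseudocount of 0.01, 3 with a filter of 2 FPKM, 33 with library weights, and 16 to 20 when 1 library was left out. KO HFD against KO chow gave 19 genes, but 8, 3 and 2420 under these settings, 31 without a filter, 12 with limma-voom, 951 with 10 libraries (186 higher and 765 lower), 39 also without KO HFD 1, and 14 to 24 when 1 library was left out. KO chow against WT chow gave 0 genes, 2 with a pseudocount of 0.01, 4 without a filter, 1 with 10 libraries, 3 also without KO HFD 1, and 0 to 2981 when 1 library was left out. WT HFD against WT chow gave 0, then 2 with a pseudocount of 0.01, 1 with 10 libraries, 3 also without KO HFD 1, and 0 to 2435 when 1 library was left out. The interaction gave 15 genes, 6 with a pseudocount of 0.1, 4 with 0.01, 25 without a filter, 1 with a filter of 2 FPKM, 0 with limma-voom, 7 with library weights, 24 without WT chow 2 and 3 and KO HFD 1, and 5 to 2265 when 1 library was left out; it could not be fitted with only the groups compared. The cause of these moves was not tested. With a replicate block the interaction gave 4 genes, and the block changed no call of the 10 genes.

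Of the haem list genes, 4 passed with 10 libraries in KO HFD against KO chow, in settings chosen after seeing the data: 12 with TPM, 1 with quantile normalization, 0 with the replicate block, and 0 to 8 when 1 further library was left out. The shares of all genes that passed in these TPM, quantile, block and left-out settings of the 10 libraries are not given here. With TPM the median of all genes in KO HFD against KO chow was −0.21 with 12 libraries and −0.22 with 10, against −0.06 in FPKM. With TPM on these 10 libraries Fech also passed in KO HFD against KO chow (−0.59). With 3 libraries a group, and 1 WT chow library in the fit of 10, the precision is limited by the number of libraries.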
